A study of Homo sapiens with 3 samples.

Results

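The mitosis genes are 38 genes of chromosome condensation, spindle assembly, the spindle checkpoint, mitotic exit and cytokinesis, chosen by symbol from a fixed list, out of 33538 genes in the count matrices. All 38 were found in all 3 libraries and all 38 passed the filter on low counts in each comparison. The libraries came from 3 Transwells on which human colorectal carcinoma lines Caco-2 (passage 8) and HT29 (passage 13) were seeded together 9 to 1 and grown until day 23. In such cultures Caco-2 cells form a polarized layer with features of absorptive enterocytes, whereas much of HT29 stays undifferentiated. Control 1 and control 2 were untreated. LPS 1 received 1 ng/ml lipopolysaccharide from Escherichia coli O111:B4 in the apical chamber on day 22 for 24 h. Each Transwell was one culture of 2 transformed lines with no other cell type, so a value stands for these lines and not for intestinal tissue.

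Entry into mitosis is driven by cyclin A and cyclin B bound to CDK1, which CDC25 phosphatases switch on. Aurora and Polo-like kinases then build the spindle, the checkpoint kinases BUB1 and TTK hold the cell until each chromosome is attached, and the anaphase-promoting complex with CDC20, UBE2C and UBE2S marks cyclin B and securin (PTTG1) for destruction. In the gut, division belongs to the crypt base and the transit-amplifying zone, and enterocytes leave the cycle as they mature. Most of these genes are transcribed late in the cycle and are held down in resting cells by the DREAM complex. DREAM reaches their promoters through the cell cycle genes homology region (CHR). Many such promoters also hold CCAAT boxes, which NF-Y binds.

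The promoters of 31 of the 38 genes were read from RefSeq (GRCh38.p14), from 250 bases before to 50 after the annotated start, and searched on both strands. AURKA, BIRC5, CDCA2, HMGB2, TPX2, TTK and UBE2C had no entry. The CHR (TTTGAA, or TTCAAA on the other strand) was present in 21 of 31 genes (67.7%) and in 18.2% of the 27305 genes with a promoter. The CCAAT box (ATTGG on the other strand) was present in 27 of 31 (87.1%) and in 39.7% of all genes, and both motifs together were in 19 of 31 (61.3%) and 8.37%. TTTAAA, a known variant of the CHR, was in 13 of 31 genes (41.9%) and in 14.5% of all. Of 41 genes of DNA replication with a promoter, 1 held the CHR (2.44%), against 37 of 58 other mitosis and G2 genes (63.8%). In 2 places motifs overlapped in the members' promoters. The following 100 bases end at the base before the annotated start and show how the motifs lie in a cyclin (CCNB2), an activator of the anaphase-promoting complex (CDC20), a kinase (PLK1) and a kinesin (KIF20A), all lower in HT29-line cells below, and in CKS2 and UBE2S, which did not differ detectably between the lines. CHR, TTTAAA and CCAAT letters on either strand are in capitals.
CCNB2 (chr15:59105046-59105145, + strand): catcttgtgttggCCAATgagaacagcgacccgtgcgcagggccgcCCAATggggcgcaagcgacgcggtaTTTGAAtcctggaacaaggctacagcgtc
CDC20 (chr1:43358881-43358980, + strand): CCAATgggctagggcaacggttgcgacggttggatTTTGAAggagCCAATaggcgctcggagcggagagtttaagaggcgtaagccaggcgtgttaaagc
PLK1 (chr16:23678789-23678888, + strand): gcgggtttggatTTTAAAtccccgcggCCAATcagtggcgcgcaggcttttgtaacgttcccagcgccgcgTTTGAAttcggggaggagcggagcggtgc
KIF20A (chr5:138179012-138179111, + strand): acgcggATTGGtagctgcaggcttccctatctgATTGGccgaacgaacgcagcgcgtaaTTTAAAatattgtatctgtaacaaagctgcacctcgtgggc
CKS2 (chr9:89311095-89311194, + strand): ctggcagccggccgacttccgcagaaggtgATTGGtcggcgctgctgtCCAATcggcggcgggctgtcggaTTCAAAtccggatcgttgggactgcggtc
UBE2S (chr19:55407789-55407888, - strand): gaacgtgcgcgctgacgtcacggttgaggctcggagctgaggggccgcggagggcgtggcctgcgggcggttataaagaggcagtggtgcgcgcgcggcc

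The stretches of CCNB2, CDC20, PLK1 and CKS2 each held a CHR and at least 1 CCAAT box, KIF20A held the variant, and none of these letters fell within the UBE2S stretch. UBE2S had a CCAAT box further out, 191 bases before the start. Not all genes lower in HT29-line cells were like those shown. The same 100 bases of TOP2A and CDCA3 held CCAAT letters but no whole CHR or variant. Their CHR matches began 194 and 151 bases before the start in TOP2A and 3 bases before it in CDCA3. CHR matches of the mitosis genes lay mostly close to the start. The bins from 50 to 26 and from 25 to 1 bases before it held a match in 22.0% and 17.1% of their 41 promoters, against 1.43% and 1.17% of 35116 promoters in all. A match is a description of the sequence and says nothing of whether the site is bound in these cells.

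**Figure D1:**
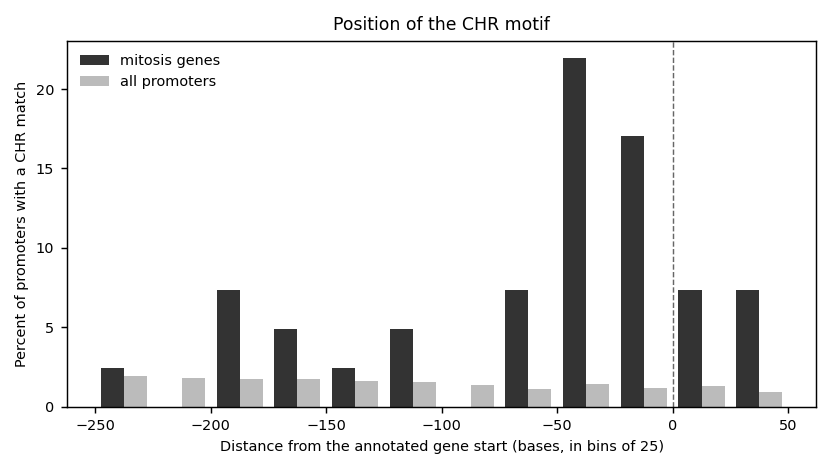
Percent of promoters (y axis) with a CHR match in each bin of 25 bases from the annotated gene start (x axis), for the 41 promoters of 31 mitosis genes (dark bars) and all 35116 promoters (light bars). The dark bars peak at 22.0% in the bin from 50 to 26 bases before the start, where the light bar is at 1.43%.

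Unique molecular identifiers (UMIs) were counted at the 3′ end of each transcript, 1 per molecule, so levels are given as UMIs per 1000000 UMIs of the summed cells (CPM) with no scaling by length. After filters on cells, 4633, 4989 and 4850 cells remained in control 1, control 2 and LPS 1, with medians of 5452, 4101 and 3573 UMIs. A pair of libraries shared between 9 and 11 barcodes. Cells were assigned to a line by their UMIs on 569 genes that the study lists for undifferentiated HT29, none of them a mitosis gene, which left between 3674 and 3856 Caco-2-line and between 728 and 1198 HT29-line cells per library. That list was chosen on the control libraries, so it is not independent of them. Summed HT29 markers such as LCN2 and TCN1 lay between 2556 and 3106 CPM in HT29-line and between 34.6 and 50.5 CPM in Caco-2-line cells, and Caco-2 markers such as AFP and APOA1 between 1723 and 2709 against 9300 and 12290 CPM. The HT29 markers were taken from the list that assigned the cells, so their difference was set by the assignment and is no check of it. Markers of immune, endothelial and stromal cells together (PTPRC, CD3E, CD14, LYVE1, PECAM1, COL1A1, COL3A1, DCN) stayed between 15.6 and 24.3 CPM in both lines.

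Together the 38 genes took 2531, 3020 and 2661 CPM of the Caco-2-line cells of control 1, control 2 and LPS 1. The levels spanned more than an order of magnitude. In Caco-2-line cells TOP2A, the topoisomerase that untangles sister chromatids, was highest at 320 ± 52.5 CPM (SD, n = 3 libraries), followed by UBE2C, the ubiquitin-conjugating enzyme that starts chains for the anaphase-promoting complex, at 301 ± 50.6 CPM. Those 2 levels did not differ beyond their spread. CDK1 (184 ± 22.0 CPM), CENPF (175 ± 20.9), HMGB2 (167 ± 10.2), CKS1B (163 ± 11.2) and UBE2S (159 ± 18.2) came next and overlapped one another. The spindle depolymerase KIF2C and the checkpoint protein BUB1B were lowest, both at 14.2 CPM. HT29-line cells had another order, with UBE2S highest at 162 ± 27.4 CPM, then CKS1B at 124 ± 17.4 CPM, UBE2C at 98.5 CPM and TOP2A at 90.6 CPM, and the kinesin of the midzone, KIF20A, lowest at 2.71 CPM.

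**Figure D2:**
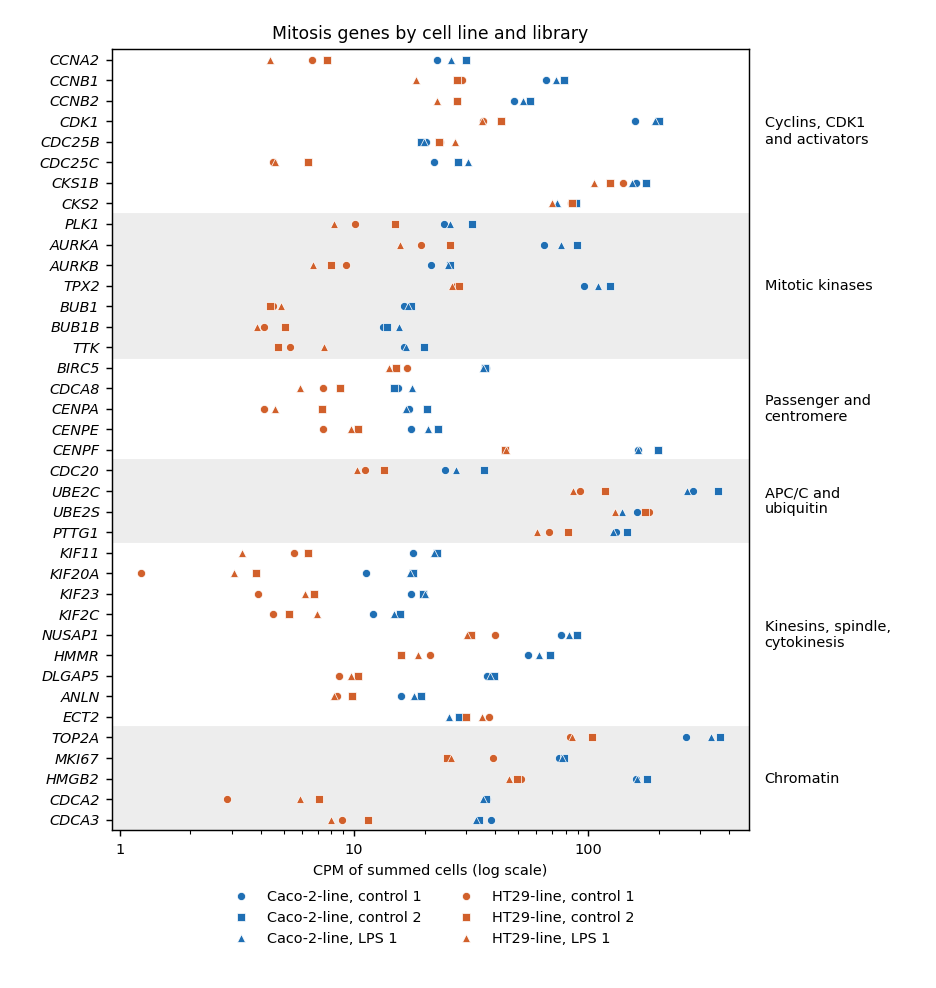
CPM of the summed cells (x axis, log scale) of each of the 38 mitosis genes (rows, grouped by role) in Caco-2-line (blue) and HT29-line (orange) cells, with 1 symbol per library. Orange symbols lie left of blue ones for most genes, overlap them for CKS2 and UBE2S, and lie right of them for CDC25B and ECT2.

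The first comparison was between the lines within each Transwell. HT29-line cells had lower levels of nearly the whole set: 34 of 38 genes fell against Caco-2-line cells, 2 rose and 2 did not pass the test, with a median log2 fold change of -1.64. Across all 14112 genes tested 36.6% were called lower and 35.2% higher, and the median was -0.05. Summed over the set, HT29-line cells had 1181, 1223 and 1019 CPM where Caco-2-line cells had 2531, 3020 and 2661 CPM in control 1, control 2 and LPS 1. HT29-line cells also held 2163, 2709 and 1723 CPM of the Caco-2 markers. Free RNA in the droplets can carry transcripts of one line into cells of the other, and its part in the levels of either line was not tested. For 36 of the 38 genes the 3 values of one line did not overlap the 3 of the other, and the same held for 71.0% of all genes tested. Called in either direction were 36 of the 38 genes and 71.7% of all. The test was edgeR's quasi-likelihood test on counts summed per line and library, with the library as a block and a Benjamini-Hochberg adjusted p of 0.05 as threshold. The 34 lower calls held under every alternative setting.

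Among the cyclins and CDK1 regulators 6 of 8 genes fell. CDK1 was at 158, 199 and 193 CPM in Caco-2-line and at 35.6, 42.5 and 35.1 CPM in HT29-line cells, with no overlap (log2 fold change -2.30 ± 0.086 SE, edgeR adjusted p = 1.9e-12). Cyclin A2, CCNA2, which acts in S phase and early mitosis, was at 22.6, 30.2 and 25.9 against 6.58, 7.64 and 4.36 CPM (-2.08 ± 0.15). The phosphatase gene CDC25C fell by 2.36 on the log2 scale, from 21.9, 27.9 and 30.7 to 4.52, 6.36 and 4.61 CPM. CCNB1 and CCNB2, the mitotic cyclins, fell by 1.55 and 1.03. The CDK-binding subunits moved less. CKS1B was at 159, 176 and 154 against 141, 124 and 106 CPM (-0.42 ± 0.079), and CKS2 at 89.0, 88.5 and 73.6 against 84.7, 84.9 and 70.2 CPM (-0.09 ± 0.076, edgeR adjusted p = 0.30). For CKS2 the values of the 2 lines overlapped across libraries, though the HT29-line value was slightly lower in 3 of 3 libraries.

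CDC25B, the phosphatase that acts at the start of mitosis, went the other way. Its levels were 20.2, 19.4 and 19.9 CPM in Caco-2-line and 23.2, 23.1 and 26.9 CPM in HT29-line cells, higher in 3 of 3 libraries (0.27 ± 0.11, edgeR adjusted p = 0.039). ECT2, the exchange factor that switches on RhoA for cytokinesis, was at 29.4, 28.1 and 25.4 against 37.8, 30.2 and 35.1 CPM (0.28 ± 0.10, edgeR adjusted p = 0.021). Both calls depended on the setting. Neither passed the threshold in DESeq2, without the library block, without the filter on low counts, without control 1 or without LPS 1, and CDC25B also missed it without control 2, with the other gene lists for the line call and in cells thinned to an equal number of UMIs.

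All 7 mitotic kinases and their activators fell, from PLK1, the Polo-like kinase (-1.31 ± 0.13), to TPX2, the activator that brings AURKA to the spindle (-2.03 ± 0.093). TPX2 was at 95.5, 124 and 110 CPM in Caco-2-line and at 27.1, 28.2 and 26.1 CPM in HT29-line cells. PLK1 was at 24.2, 31.9 and 25.6 against 10.1, 14.9 and 8.20 CPM. All 5 chromosomal passenger and centromere genes fell as well. CENPF, a kinetochore protein that builds up in G2, was at 162, 199 and 163 against 44.2, 44.0 and 44.3 CPM (-2.01 ± 0.085), and CDCA8 of the passenger complex had the smallest change of this group at -1.11.

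Of the anaphase-promoting complex genes 3 of 4 fell. UBE2C was at 281, 358 and 263 CPM in Caco-2-line and at 92.1, 117 and 85.9 CPM in HT29-line cells (-1.63 ± 0.070). UBE2S, which elongates the chains that UBE2C starts, was at 162, 175 and 139 against 181, 174 and 130 CPM, lower in 2 of 3 libraries and overlapping (0.00 ± 0.072, edgeR adjusted p = 0.99).

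Among kinesins, spindle and cytokinesis genes 8 of 9 fell and ECT2 rose. KIF20A was at 11.3, 17.8 and 17.4 CPM in Caco-2-line and at 1.23, 3.82 and 3.08 CPM in HT29-line cells (-2.53 ± 0.20). ANLN, the scaffold of the contractile ring, had the smallest fall at -1.02. The last group of 5 genes, TOP2A, MKI67, HMGB2, CDCA2 and CDCA3, all fell. It was set up as chromatin and chromosome proteins, a label that does not describe CDCA3. TOP2A was at 262, 364 and 334 against 83.5, 104 and 84.8 CPM (-1.83 ± 0.077), and MKI67, the Ki-67 antigen that coats mitotic chromosomes, at 75.0, 78.9 and 77.4 against 39.1, 24.9 and 25.9 CPM (-1.39 ± 0.12). CDCA2, which brings protein phosphatase 1 to chromatin at mitotic exit, had the largest fall of the set, from 37.1, 36.8 and 35.5 to 2.88, 7.09 and 5.89 CPM (-2.81 ± 0.18).

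The second comparison was within Caco-2-line cells, split into 3 equal groups per library by the share of UMIs on 20 enterocyte genes such as APOA4, the apolipoprotein of chylomicrons, and the brush border sucrase SI. The group with the highest share (enterocyte-rich) was set against that with the lowest (enterocyte-poor). The mitosis genes were lower in enterocyte-rich cells: 36 of 38 fell, CDCA2 rose and CDCA3 did not pass the test, with a median log2 fold change of -1.05. Of 12541 genes tested 28.2% were called lower and 29.3% higher. Summed levels were 3225, 3835 and 3587 CPM in the enterocyte-poor, 2890, 3327 and 2945 CPM in the middle and 1406, 1786 and 1399 CPM in the enterocyte-rich group of control 1, control 2 and LPS 1, so the step from the middle to the enterocyte-rich group was the larger one in each library. The test was as above, with the library as a block. Scaling by library size alone moved the median of all genes from -0.01 to -0.30 and the split of calls from 3676 higher and 3539 lower to 2073 and 6057; 37 mitosis genes were then called lower, CDCA3 among them, and CDCA2 stayed higher.

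BUB1, the kinase that recruits other checkpoint proteins to kinetochores, had the largest fall, from 22.6, 25.4 and 26.4 CPM in enterocyte-poor to 7.06, 8.15 and 5.83 CPM in enterocyte-rich cells (-1.51 ± 0.14, edgeR adjusted p = 6.8e-12). CENPF fell by 1.48, from 227, 276 and 248 to 67.7, 92.7 and 62.4 CPM. TOP2A was at 338, 481 and 460 against 138, 202 and 160 CPM (-1.07 ± 0.060). The smallest falls were those of PTTG1 (-0.59 ± 0.073) and CKS2, at 111, 99.1 and 96.7 against 57.3, 64.3 and 39.9 CPM (-0.65 ± 0.083). CDC25B, ECT2 and UBE2S, which were not lower in HT29-line cells, fell here with the rest, by 1.02, 1.07 and 0.79 on the log2 scale. UBE2S was at 210, 226 and 167 CPM in enterocyte-poor and at 91.0, 108 and 88.4 CPM in enterocyte-rich cells.

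CDCA2 rose. It was at 23.6, 22.6 and 23.0 CPM in the enterocyte-poor, 31.0, 31.2 and 28.8 CPM in the middle and 57.9, 58.5 and 55.8 CPM in the enterocyte-rich group, in order and without overlap in each of the 3 libraries (1.60 ± 0.089, edgeR adjusted p = 1.0e-18). CDCA3, a substrate of the anaphase-promoting complex that helps degrade WEE1, was at 37.95, 35.9 and 34.8 against 30.3, 27.7 and 25.5 CPM. That gave -0.09 ± 0.095 on the scaled counts (edgeR adjusted p = 0.43).

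HT29-line cells lay even below the enterocyte-rich Caco-2-line cells for most of the set. The level in HT29-line cells was below that of the enterocyte-rich group in 3 of 3 libraries for 28 of the 38 genes, and above it in 3 of 3 for CDC25B, CKS1B, CKS2, UBE2S and ECT2. The share of all genes that lay below or above in 3 of 3 libraries was not counted, so these counts have no background beside them. They are descriptions of the summed levels, with no test.

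**Figure D3:**
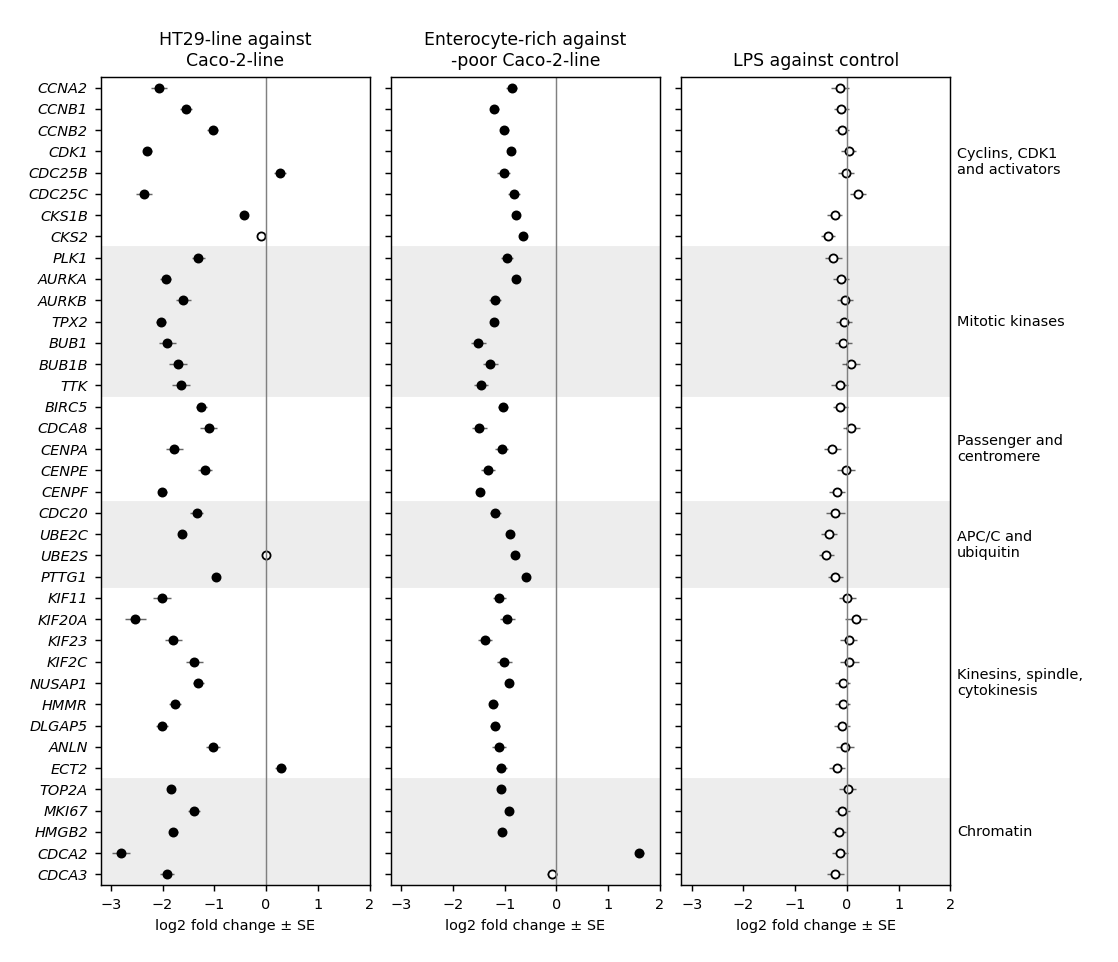
log2 fold change with its standard error (x axis) of each mitosis gene (rows, grouped by role) between lines, between enterocyte-rich and enterocyte-poor Caco-2-line cells and between LPS and control. Filled points passed an adjusted p of 0.05 in edgeR: 36 of 38 in the first panel, 37 in the second, where CDCA2 lies at 1.60, and none in the third.

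The third comparison was of the LPS library with the 2 controls over all kept cells. These mixed the lines unequally, with 15.7%, 24.0% and 18.9% HT29-line cells in control 1, control 2 and LPS 1. The part of this mix in the levels below was not tested, but levels are also at hand within each line. CKS2 was lowest with LPS in both, at 89.0, 88.5 and 73.6 CPM in Caco-2-line and 84.7, 84.9 and 70.2 CPM in HT29-line cells. CDC25C was highest with LPS in Caco-2-line cells (21.9, 27.9 and 30.7 CPM) and between the controls in HT29-line cells (4.52, 6.36 and 4.61 CPM). None of the 38 genes was called by edgeR or by DESeq2, 3 were at an unadjusted p under 0.05 in edgeR (CKS2, UBE2C and UBE2S), and the median log2 fold change was -0.09. Over all 16142 genes 0.0558% were called (0.0434% higher and 0.0124% lower), and 715 were at an unadjusted p under 0.05. With 1 treated culture the test borrows the spread between the 2 controls on 1 residual degree of freedom. UBE2S had the largest fitted difference, with 167 and 177 CPM in the controls and 137 CPM with LPS (-0.40 ± 0.14, edgeR adjusted p = 0.94), below both controls. CDC25C had the largest in the other direction, with 18.7 and 22.6 against 25.3 CPM (0.22 ± 0.16). The LPS value lay between the controls for 20 genes, TOP2A (230 and 302 against 284 CPM) and MKI67 (68.8 and 66.2 against 67.2 CPM) included, below both for 12 and above both for 6. This split was not counted over all genes, so it is no result about the mitosis genes. The difference between lines was not called as changed by LPS for any of the 38 genes in a test of the interaction, where 0.0638% of 14112 genes were called and 2 mitosis genes, CCNB1 and KIF11, were at an unadjusted p under 0.05.

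To see how the transcripts are spread over cells, each cell was thinned to 1500 UMIs and its detected mitosis genes were counted. Cells with none made up 44.7%, 41.6% and 42.0% of control 1, control 2 and LPS 1. A cell with 10 or more of the 38 genes is called mitosis-high here. Such cells were 5.13% (95% exact binomial interval 4.45 to 5.88), 7.35% (6.53 to 8.24) and 6.09% (5.36 to 6.90) of Caco-2-line cells, and 1.37% (0.661 to 2.51), 2.00% (1.29 to 2.97) and 1.20% (0.601 to 2.14) of HT29-line cells. The intervals cover counting error only, and those of the 2 lines did not overlap in any library. In the enterocyte-poor, middle and enterocyte-rich group of Caco-2-line cells the shares were 6.63%, 6.07% and 2.68% in control 1, 9.97%, 8.33% and 3.76% in control 2 and 9.26%, 6.54% and 2.49% in LPS 1. Before thinning, mitosis-high cells had more UMIs than the rest, with medians of 8559 against 5345, 6078 against 4010 and 4740 against 3529. Doublets also have more UMIs, and what part cell pairs have in these shares was not tested beyond the run with no doublets removed, which gave a mean of 6.15% in place of 6.19% for Caco-2-line cells.

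**Figure D4:**
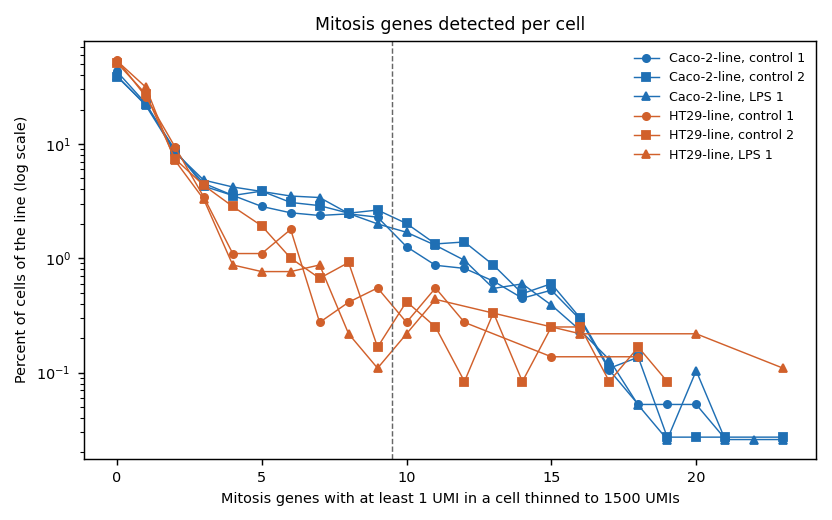
Percent of cells of a line (y axis, log scale) by the number of mitosis genes with at least 1 UMI after thinning to 1500 UMIs (x axis), 1 line per library for Caco-2-line (blue) and HT29-line (orange) cells. The dashed line marks the limit of 10 genes, above which 5.13% to 7.35% of Caco-2-line and 1.20% to 2.00% of HT29-line cells lie; missing points are counts of 0 cells.

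Scored for each gene by the other 37, mitosis-high cells, on average 5.19% of all cells by the full set, held a median of 31.2% of a gene's UMIs. The set scored without the gene differed in size between genes. It was 3.54%, 4.63% and 3.90% of cells for TOP2A and 4.38%, 5.89% and 4.99% for KIF20A, so the shares are not on an equal base. CPM in such cells over that in the rest ran from 10.75 to 13.2 for TOP2A, from 11.5 to 16.6 for KIF20A and from 1.73 to 2.07 for CDCA2. The kinesins KIF20A (43.6% ± 6.18, SD, n = 3 libraries), CENPE (43.0% ± 5.33) and KIF2C (42.0% ± 12.3) and the kinase PLK1 (41.3% ± 1.40) had the highest shares, and these 4 did not differ beyond their spread. CDCA2 was the least concentrated at 9.13% ± 1.16, followed by CKS1B (14.8% ± 1.86), CKS2 (20.1% ± 3.52), HMGB2 (20.4% ± 2.43) and UBE2S (21.4% ± 3.52). Those last 3 did not differ beyond their spread. Members that hold the CHR letters TTTGAA had a median of 30.3% over 21 genes and those without 35.6% over 10. The 10 include KIF20A, CENPE and KIF2C, which hold the TTTAAA variant. Only 4 of the 31 genes with a promoter held neither form, so the 2 medians do not set genes with the element against genes without it.

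The genes also differed in their level in cells with few transcripts of the cycle. Quiet cells were those with fewer than 3 genes detected both among the DNA replication genes and among the other mitosis genes, between 3197 and 3362 cells per library, and cycling cells in G1 may be among them. In the 3 libraries together, the level in quiet cells was 61.5% of that in mitosis-high cells for CDCA2 (34.2 against 55.6 CPM), 14.6% for CKS1B (58.7 against 402 CPM), 12.5% for CKS2, 12.5% for ECT2, 12.3% for CDC25B, 9.64% for CDCA3 and 8.47% for UBE2S. For TOP2A it was 1.05% (17.7 against 1677 CPM), for UBE2C 1.07%, for KIF20A 1.07% and for KIF2C 0.758%. Both classes were selected by the other mitosis genes. A low percentage for a gene that follows them across cells was thus in part set by the selection. Free RNA in the droplets adds to such low levels, and its part was not tested. The 2 classes also held unlike mixes of the lines. By the full set, 10 of 207, 24 of 297 and 11 of 249 mitosis-high cells of control 1, control 2 and LPS 1 were HT29-line. Of quiet cells, scored for KIF20A, 634 of 3197, 998 of 3319 and 808 of 3222 were. These percentages are for both lines together, and the part of the line differences in them was not tested.

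In quiet cells 4 genes were higher in HT29-line than in Caco-2-line cells in 3 of 3 libraries, namely CDC25B, CKS1B, UBE2S and ECT2, and 18 were lower in 3 of 3. The same was not counted over all genes, so these counts have no background beside them. Some rest on few UMIs, such as 2 of KIF20A in the quiet cells of control 1. UBE2S was at 99.4, 82.8 and 70.0 CPM in quiet HT29-line and at 46.4, 46.3 and 37.7 CPM in quiet Caco-2-line cells. ECT2 was at 26.2, 25.3 and 35.4 against 7.70, 7.05 and 8.42 CPM. Both sets of values were apart in each library. CDCA2 was the reverse, with 46.9, 45.4 and 42.3 CPM in quiet Caco-2-line and 1.05, 4.0 and 4.12 CPM in quiet HT29-line cells. Within quiet Caco-2-line cells it was at 22.3, 13.9 and 18.0 CPM in the enterocyte-poor and 68.5, 70.6 and 61.6 CPM in the enterocyte-rich group, so its rise with enterocyte genes was also present in cells with few other mitosis transcripts. CDCA3 was likewise higher in the enterocyte-rich group of quiet cells in 3 of 3 libraries. For 30 of the 38 genes that group was higher in none of the 3 libraries. Ties are included, as CENPA and KIF2C were at 0 CPM in both groups of control 1. The limits of small counts and of no count over all genes apply here too.

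**Figure D5:**
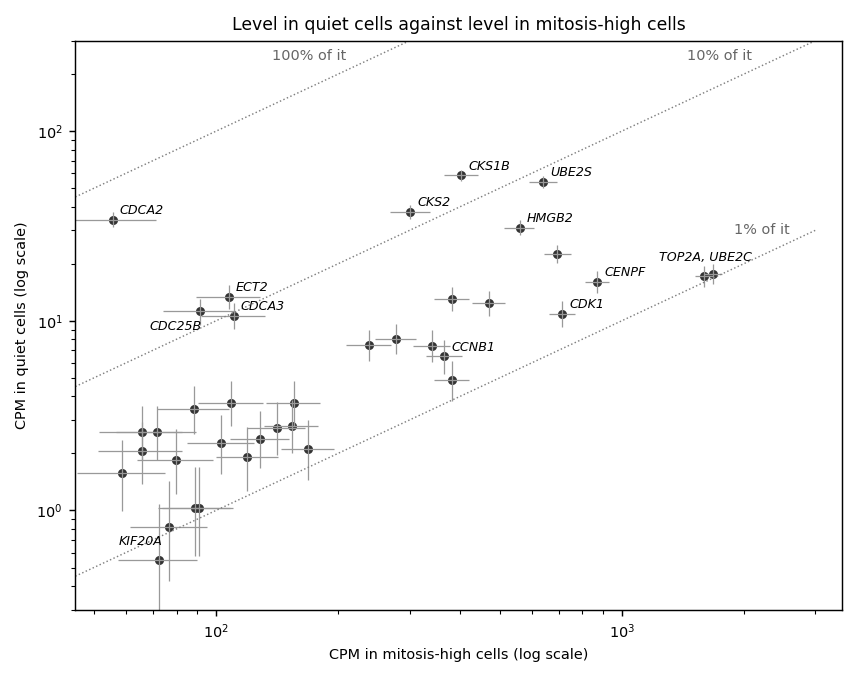
CPM in quiet cells (y axis, log scale) against that in mitosis-high cells (x axis, log scale) for the 38 genes, cells of both lines and the 3 libraries together, with exact 95% Poisson intervals for counting error. CDCA2 lies at 61.5% of its mitosis-high level and TOP2A and UBE2C close to the line for 1%.

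Cells with 6 or more DNA replication genes and fewer than 4 of the other mitosis genes, between 79 and 131 per library, were a further class. They were selected for few of the other mitosis genes, so low levels there were in part set by the selection, and no stage of the cycle is read from them. CKS1B had 0.614 of its mitosis-high level there (247 against 402 CPM), ahead of HMGB2, a chromatin protein (208 against 560 CPM), and CDK1 (253 against 713 CPM). At the other end KIF20A had 1 UMI in 288 such cells (2.32 CPM, 95% exact Poisson interval 0.0586 to 12.9) against 76.7 CPM in mitosis-high cells. PLK1 was at 11.5 against 154 CPM, CENPE at 9.26 against 129 CPM and UBE2C at 125 against 1600 CPM. These classes were defined after the data had been seen and have no test.

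Other genes of the cycle gave the setting. Of 67 other mitosis and G2 genes 61 fell and 1 rose in HT29-line cells, with a median of -1.46. The kinesin KIF15 had the largest fall (-2.23 ± 0.21), from 9.35, 10.5 and 12.7 to 2.06, 2.00 and 3.08 CPM, and the histone variant H2AZ1 rose, from 377, 339 and 296 to 614, 483 and 443 CPM (0.58 ± 0.062). In enterocyte-rich cells 63 of the 67 fell and 2 rose, with a median of -0.89. One of the 2 was ESPL1, separase, the protease that cuts cohesin at anaphase, at 5.46, 7.37 and 4.72 CPM in enterocyte-poor and 23.0, 17.4 and 22.0 CPM in enterocyte-rich cells (2.12 ± 0.16). The other was the beta-tubulin TUBB4B, by 0.38 on the log2 scale, a call that was lost with scaling by library size alone. None of the 67 was called for LPS in edgeR, with 4 at an unadjusted p under 0.05.

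Of 50 DNA replication genes 45 fell and none rose between lines (median -1.43), and 46 fell and none rose in enterocyte-rich cells (median -0.83). MCM10, which helps load the polymerases, was at 18.5, 18.1 and 20.7 CPM in Caco-2-line and at 2.06, 2.18 and 1.79 CPM in HT29-line cells (-3.24 ± 0.20). None was called for LPS in edgeR, and none had an unadjusted p under 0.05.

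Of 24 genes for brakes of the cycle and G1 cyclins 10 rose and 11 fell in HT29-line cells, beside 35.2% higher and 36.6% lower of all genes tested, so the counts were near the background and are no result about the list. CDKN1A, the inhibitor p21, was at 28.2, 29.7 and 36.3 CPM in Caco-2-line and at 153, 190 and 187 CPM in HT29-line cells (2.47 ± 0.084, edgeR adjusted p = 6.3e-13), and CDKN2A, which encodes p16 and ARF, at 32.9, 33.1 and 29.1 against 87.6, 68.7 and 66.6 CPM (1.20 ± 0.090). Other genes of the list were lower in HT29-line cells. RBL1 was at 12.7, 13.2 and 16.7 against 1.85, 3.82 and 1.54 CPM. BTG2 was at 149.6, 139.5 and 129 against 77.9, 67.8 and 59.7 CPM. The D cyclins went apart: CCND2 fell by 2.94 and CCND1 by 1.72, at 164, 156 and 182 against 49.1, 44.4 and 63.3 CPM, while CCND3 rose, with 15.0, 12.9 and 15.5 against 34.1, 27.1 and 37.4 CPM. Of 23 of these genes tested between enterocyte-rich and enterocyte-poor cells 3 rose and 11 fell, beside 29.3% and 28.2% of all genes tested. CDKN2A went from 35.5, 39.1 and 32.1 CPM in enterocyte-poor to 25.2, 27.1 and 18.85 CPM in enterocyte-rich cells. RBL1 went from 14.8, 14.9 and 19.45 to 9.28, 9.39 and 10.9 CPM. CDKN1A rose from 14.9, 17.0 and 19.3 to 44.6, 45.9 and 57.0 CPM (1.81 ± 0.098) and CCND3 by 1.59 on the log2 scale, while CCND2 (-1.87) and CDK6 (-1.45), the kinase partner of D cyclins, fell. None was called for LPS in edgeR, with 1 at an unadjusted p under 0.05.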

How the data were processed

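Single-cell RNA was measured in 2 control libraries and 1 LPS library with the 10x 3′ kit. The UMI counts per gene and barcode were deposited by the authors as Cell Ranger made them (matrix header 3.1.0, GRCh38), with no normalization; the libraries hold between 24185467 and 33893707 UMIs in 5811 to 6838 barcodes. Cells were kept at the minimums the study states for each control (those of control 2 for LPS, 1500 UMIs and 700 genes) and at most 20% mitochondrial UMIs. Scrublet in scanpy 1.11.5 marked 0, 0 and 1 cells by its automatic threshold, so the 6% of cells with the highest scores were removed. A Gaussian mixture of 2 components per library on the share of UMIs on the undifferentiated HT29 list gave the line at a posterior of 0.9. The 3 Transwells are separate cultures of the same cell stocks.

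Counts were summed per library and class. edgeR 4.0.16 (R 4.3.3) with TMM scaling, filterByExpr, its quasi-likelihood test and Benjamini-Hochberg adjustment over all genes was the main test, and DESeq2 1.42.0 an alternative. Both classes of a pair come from the same library, which entered as a block. The standard error is the log2 fold change over the square root of F. Tested on simulated data with 200 changed genes per comparison, the edgeR test recovered 87.1% and 99.1% of changes of 1 and 2 on the log2 scale between lines, 87.1% and 100% between enterocyte groups and 65.6% and 92.9% for LPS, with 8.21%, 4.66% and 3.73% of its calls false. The simulated libraries differed only in size, and no change was smaller than 1. In the data 71.7% of genes were called between lines and 57.5% between enterocyte groups. These rates therefore need not hold for the data, nor for changes as small as those of CDC25B and ECT2.

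Named members were mostly those at the ends of a role or apart from it. A few genes were named from each other list, most of all from the brakes and G1 cyclins. The genes named from that list were not all its largest changes. The members, lists and tests were chosen with earlier results of these data known, and the quiet and replication classes after their values were seen. Reads of 13 members could be split with pseudogenes of their name in RefSeq, and BUB1B and CENPA overlap a gene on the same strand. H2AZ1 is listed under its older symbol H2AFZ in the matrices and was matched by gene ID.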

Additional observations from a re-analysis of the deposited data

How the results depend on the processing

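Between lines, 34 mitosis genes were lower under all 13 alternatives. The number higher, 2, was 0 with DESeq2, with no filter on low counts and with no replicate block, 1 with the other line list and with cells thinned to 1500 UMIs, and 0 to 1 when a library was left out; only CDC25B and ECT2 were involved. UBE2S, at 0.00, turned to -0.052 without the filter, -0.0061 at the minimums of control 1, -0.017 with all barcodes and -0.071 with the other line list, and ran from -0.056 to 0.066 when a library was left out (-0.056 without control 1), never past the threshold; the cause was not tested. Between enterocyte-rich and enterocyte-poor cells, 35 to 37 genes were lower and CDCA2 higher under every alternative, CDCA3 turned to 0.043 in thinned cells, and the block changed no other call of a member. Over all genes 7215 were called there, 4401 with DESeq2 and 4242 in thinned cells, and for LPS 9, between 7 and 49 under the alternatives with a test. For LPS, 0 members were called under each alternative with a test. CDC25C turned to -0.30 in HT29-line cells alone, and TOP2A (0.015) to -0.20 there, to -0.0023 without the filter, to -0.0059 with all barcodes and to between -0.15 and 0.19 without 1 control (-0.15 without control 1). No paired analysis of LPS was possible, because there was 1 LPS culture and the labels do not pair it with a control. The share of mitosis-high cells, 6.19% in Caco-2-line and 1.53% in HT29-line cells, was 16.9% and 4.11% at 6 genes, 1.63% and 0.580% at 14 genes, and 24.0% and 7.83% in unthinned cells; the UMIs a gene had in such cells, 31.2%, were 64.1%, 11.3% and 85.4%, as the limits' construction gives, and 29.95% to 32.1% when a library was left out. At this depth a gene such as KIF20A had 6 to 21 UMIs per HT29-line sum.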

Other observations

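Apart from the 38 genes, other genes were ranked by how closely they followed the mitosis genes across cells within a library. The log of a gene's UMI count was correlated (Pearson) with the log of the summed count of the mitosis genes, in cells thinned to 1500 UMIs. Genes with a UMI in at least 1% of the cells of every library were ranked by the lowest r of the 3 libraries. The highest was TUBA1B, an alpha-tubulin (r = 0.58, 0.56 and 0.57 in control 1, control 2 and LPS 1), followed by the histone gene HIST1H4C (lowest r = 0.49), HMGB1 (0.39), ASPM (0.37), CDKN3 (0.34), TUBB (0.33), KPNA2 (0.31), TUBB4B (0.29), KIF20B (0.29) and SGO2 (0.28). The cells of a library share its depth and free RNA, and these values are descriptions with no test. Of these 10, ASPM, TUBA1B, TUBB4B, KIF20B and SGO2 were on the list of other mitosis and G2 genes. Among pairs of members UBE2C and TOP2A had the highest correlation (0.57, 0.59 and 0.56). ESPL1, which rose with the enterocyte genes, had r of 0.01, 0.02 and 0.02 with the summed count of the mitosis genes. The ranked enterocyte genes did not go one way. APOA4 had the lowest r of them, at -0.21, -0.15 and -0.21, and APOA1 the highest, at 0.08, 0.12 and 0.07. The other ranked enterocyte genes lay between APOA4 and APOA1. The enterocyte genes took 1.61%, 1.29% and 1.22% of UMIs in Caco-2-line cells of control 1, control 2 and LPS 1. In HT29-line cells, which also had lower mitosis genes, they took 0.289%, 0.357% and 0.235%. These r are therefore not values within enterocyte-like cells.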
